A study of Sus scrofa with 12 samples.

Results

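Kinesins are motor proteins that use ATP to move along microtubules or to shorten their ends. In dividing cells they build the spindle, move chromosomes and complete cytokinesis, and in cilia and sperm flagella they carry building material to the tip or control length and beating. The testis depends on both kinds of work, since male germ cells pass through mitosis and meiosis and then form a flagellum. A gene counted as a kinesin here when its symbol, in upper case, was KIF followed by a number and at most 1 letter from A to C, or KIFC followed by 1 digit. By this rule 41 of the 21674 protein-coding genes in the table were kinesins, from 13 kinesin families. By main role, 13 act in the spindle and in cytokinesis, 9 in the cilium and flagellum, 14 in cargo transport, and 5 were placed under other roles. Of the 41, 40 had a gene identifier of NCBI, and Kif17 was an assembled transcript named by similarity, with no position in the table. CENPE, STARD9, LOC100739202 and LOC110259833 also encode kinesins or kinesin-like proteins but have other symbols, so they were not among the 41.

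The libraries came from testes that were removed by castration from 12 boars. Hezuo (HZ) boars gave groups Ha, at 30 days of age, and Hb, at 120 days, and Landrace (LC) boars gave La, at 30 days, and Lb, at 120 days. Each group had 3 libraries, 1 per animal, so ages were compared between different boars. Estimated counts over all protein-coding genes had a median per library of 23490893 in Ha (from 22538417 to 23758931), 20678367 in Hb (from 17165519 to 22707568), 22233155 in La (from 18523274 to 23563949) and 22951618 in Lb (from 18998959 to 23253496). Values of 1 gene are given as CPM, the counts-per-million unit with libraries scaled by the TMM factors of edgeR, in the order of replicates 1, 2 and 3. Levels of different genes are compared only as FPKM, deposited fragment counts scaled for both depth and gene length. Changes are log2 fold changes ± standard error between 3 and 3 libraries, the older group over the younger or LC over HZ, from the quasi-likelihood test of edgeR on the whole table. A gene was called higher or lower when its Benjamini-Hochberg adjusted p was under 0.05 and its log2 fold change was beyond 1 in size.

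Marker genes were checked against the tissue label before the kinesins were read. The FPKM of 10 spermatid markers summed to 5.72, 7.02 and 6.73 in Ha, 5280.0, 5793 and 7667 in Hb, 10.8, 9.39 and 4.53 in La and 3909, 3342 and 3575 in Lb, with PRM1, a protamine, the most abundant in each group. Those of 8 spermatocyte markers summed to 10.5, 10.96 and 6.50 in Ha, 151, 157 and 134 in Hb, 5.40, 4.76 and 4.41 in La and 116, 110.3 and 124 in Lb, led by PIWIL1 in Ha, Hb and Lb and by MEIOB in La. Both sums were low in all 6 libraries of 30 days and high in all 6 of 120 days. In each breed 9 of 9 spermatid markers tested and 8 of 8 spermatocyte markers were called higher at 120 days. Of all genes tested 28.2% in HZ and 27.5% in LC were called higher, and 23.2% and 20.1% lower. Only 5 of 10 spermatid markers had enough counts to be tested between the breeds at 30 days. The others that were tested for age passed the filter through their 120-day libraries alone. That favours a higher call, so the 9 of 9 is a description only. Summed FPKM of 11 spermatogonia markers was 76.0, 73.3 and 59.5 in Ha, 177, 182 and 173 in Hb, 41.2, 40.6 and 43.9 in La and 155, 139.8 and 162 in Lb, led by DAZL in Ha, ZBTB16 in La and DDX4 at 120 days (means of 139 in Hb and 107 in Lb), with 3 called higher and 6 lower in HZ and 4 and 5 in LC. The 8 markers of dividing cells summed to 176, 198 and 171 in Ha, 272, 251 and 283 in Hb, 145, 111 and 139.9 in La and 245, 193 and 210.5 in Lb, led by PCNA at 30 days and TOP2A at 120 days, with 3 higher and 2 lower in HZ and 5 and 1 in LC.

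Somatic markers were present in every group and mostly lower at 120 days. Of all genes tested 23.2% in HZ and 20.1% in LC were called lower, and 28.2% and 27.5% higher. Sertoli cell markers, 8 genes led by INHA at 30 days and CLDN11 at 120 days, summed to 782, 751 and 973 in Ha, 181, 288 and 216 in Hb, 1508, 1770.0 and 1632 in La and 311, 385 and 370.5 in Lb FPKM, and 4 of 8 were called lower in each breed. Leydig cell markers, 7 genes led by CYP17A1 at 30 days and INSL3 at 120 days, summed to 5487, 5009 and 4883 in Ha, 2180.0, 189 and 128 in Hb, 7771, 5341 and 6281 in La and 2708, 4057 and 1712 in Lb, with 4 of 7 called lower in HZ and 5 in LC. Hb1 stood apart here, its sum being several times that of Hb2 and Hb3. Peritubular and stromal markers, 10 genes led by COL3A1, and by ACTA2 in Hb, summed to 976, 949.8 and 978 in Ha, 102, 101 and 66.5 in Hb, 1341, 1224 and 1512 in La and 530.1, 516 and 562 in Lb, with 8 called lower in HZ, and 5 lower and 1 higher in LC. For endothelial markers, 5 genes led by VWF, the sums were 93.7, 94.5 and 84.3 in Ha, 13.9, 26.7 and 15.7 in Hb, 98.0, 78.3 and 91.0 in La and 28.2, 45.7 and 28.6 in Lb, with 5 lower in HZ and 3 in LC. For macrophage markers, 6 entries for 5 genes, they were 40.3, 32.7 and 32.6 in Ha, 14.7, 13.4 and 10.04 in Hb, 38.3, 33.0 and 36.4 in La and 14.8, 21.7 and 19.6 in Lb, with 1 higher and 5 lower in HZ and 1 higher and 4 lower in LC. The leading entry was CD163 in Ha and CSF1R in La, and at 120 days it was Cd163, a separate entry at 9.28 FPKM in Hb and 10.2 in Lb but 0.03 in Ha and 0.04 in La, which was the 1 called higher. The other entry, CD163, was called lower in both breeds. No marker of any list was at 0 in all 3 libraries of a group. A bulk library cannot tell fewer cells of a type from less RNA per cell, and the part of cell composition in the kinesin results below was not tested.

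Kinesin transcripts took a larger share of the library at 120 days. They held 0.131% of all counts in Ha (mean, SD 0.0084), 0.464% in Hb (SD 0.0304), 0.109% in La (SD 0.0066) and 0.345% in Lb (SD 0.0121). The FPKM of the 41 genes summed to 222, 223 and 192 in Ha, 815, 729 and 818 in Hb, 166, 154 and 178 in La and 620.2, 584 and 574 in Lb. Every library of 120 days was above every library of 30 days in this sum, and within each age every HZ library was above every LC library. At 30 days the leading gene was KIF22 in HZ, at a mean of 26.7 FPKM (SD 5.98), ahead of KIF2A at 22.7, a lead smaller than that SD. KIF2A led in LC at 19.6 FPKM (SD 4.48), ahead of KIF21A at 13.6. At 120 days Kif17 led in both breeds, at 207 FPKM (SD 27.3) in Hb and 149 (SD 5.87) in Lb, ahead of KIF2B at 107 and 55.6. Kif17, KIF2B and KIF2C together held 48.7% of the kinesin FPKM in Hb and 43.6% in Lb, while the leading 3 genes of 30 days, KIF22, KIF2A and KIF1B in Ha and KIF2A, KIF21A and KIF22 in La, held 30.9% and 26.8%. The median kinesin was at 3.61 FPKM in Ha, 5.83 in Hb, 2.61 in La and 6.01 in Lb, while the median over all genes above 0 was 2.90, 2.39, 2.81 and 2.74.

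**Figure D1:**
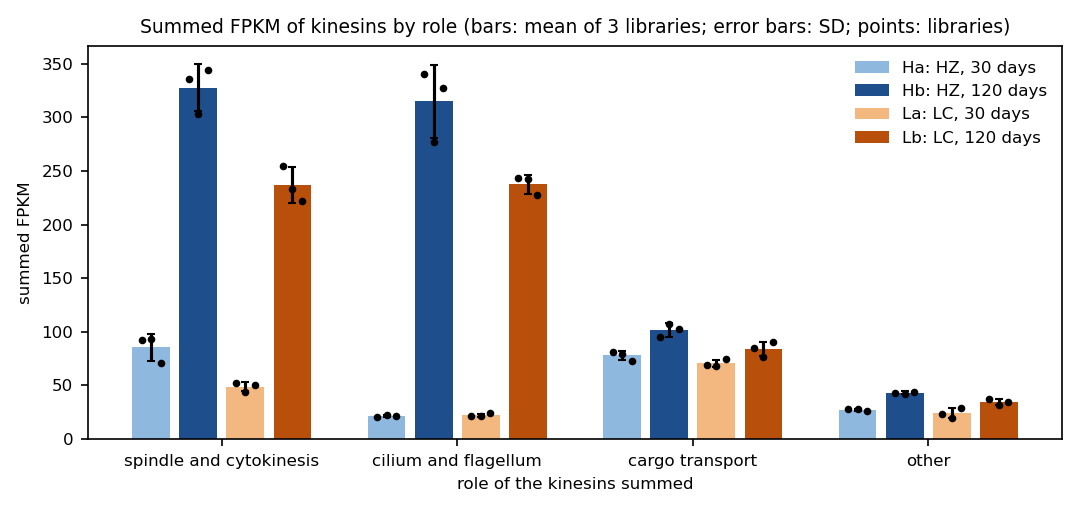
Summed FPKM of the kinesins (vertical axis) by role (horizontal axis), as bars for the mean of 3 libraries with SD and points for the libraries, coloured by group (Ha, Hb, La, Lb). Means of the cilium and flagellum sum were 21.4 in Ha, 315 in Hb, 22.4 in La and 238 in Lb.

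By role, the summed FPKM of the 13 spindle and cytokinesis kinesins was 85.7 in Ha (mean, SD 12.7), 328 in Hb (SD 21.9), 48.8 in La (SD 4.29) and 237 in Lb (SD 16.6). The 9 cilium and flagellum kinesins summed to 21.4 (SD 0.860), 315 (SD 33.8), 22.4 (SD 1.41) and 238 (SD 8.74) in the same order. Cargo kinesins, 14 genes, had sums of 78.0, 102, 70.8 and 84.1, and the 5 others had 27.2, 43.2, 24.1 and 34.4. Most of the difference of the total between the ages lay in the first 2 roles. In the cilium role, Kif17 alone held 207 of 315 FPKM in Hb and 149 of 238 in Lb, and its name, given by similarity, is less certain than the others.

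All 41 kinesins passed the filter on low counts in both age comparisons. In HZ, 22 of 41 (53.7%) were called higher at 120 days and 4 (9.76%) lower, where 28.2% and 23.2% of the 16548 genes tested were called. In LC the counts were again 22 and 4, where 27.5% and 20.1% of 16637 genes were called. The median log2 fold change of the kinesins was 1.12 in HZ and 1.28 in LC, and that of all genes tested -0.02 and 0.01. KIF6, KIF14, KIF25 and KIF2B passed the filter only through their 120-day libraries in each breed, KIF12 only through Ha and KIF26A only through La, and KIF1C had no group with 10 counts in every library. Among the 35 members with at least 10 counts in every library, 19 were called higher and 3 lower in HZ (median 1.11), and 18 and 4 in LC (median 1.16).

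The HZ split and the medians depended on how the values were scaled. Scaled by total counts alone, 16 kinesins were called higher and 7 lower in HZ, all genes moved from 4666 higher and 3844 lower to 3978 and 5039, and the median of all genes moved to -0.32 in HZ and -0.16 in LC. The median of the kinesins was then 0.81 in HZ and 1.12 in LC. With limma on log2(FPKM + 1), which shrinks changes of genes with low FPKM, it was 0.55 in HZ and 0.66 in LC, with 14 called higher and 4 lower and 17 and 3, and with limma on log2(FPKM + 0.1) it was 0.75 and 0.91. Over all genes, limma on log2(FPKM + 1) called 2813 higher and 3834 lower of 16548 in HZ and 2918 and 2668 of 16637 in LC, and the medians were -0.28 and -0.16 in this fit and -0.47 and -0.27 with limma on log2(FPKM + 0.1). In HZ, the calls of KIF24, KIF2A, KIF11 and KIF20A were lost with total counts alone and with both limma fits, those of KIF5B and KIF20B with both limma fits, that of KIF3A with total counts alone and limma on log2(FPKM + 1), that of KIF1B with total counts alone, and those of KIF12, KIF25 and KIF26B with limma on log2(FPKM + 1). In LC, the call of KIF4A was lost with total counts alone and both limma fits, that of KIF20B with both limma fits, and those of KIF14, KIF24, KIF25 and KIF26B with limma on log2(FPKM + 1).

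The age comparisons of the breeds share no library. In both, 18 kinesins were called higher, namely KIF15, KIF18A, KIF19, KIF1B, KIF20A, KIF20B, KIF21B, KIF23, KIF24, KIF25, KIF27, KIF2B, KIF2C, KIF3B, KIF6, KIF9, KIFC3 and Kif17, and 3 were called lower, KIF13A, KIF26B and KIF3C. KIF11, KIF2A, KIF3A and KIF5B were called higher in HZ alone, and KIF14, KIF22, KIF4A and KIF5C in LC alone. KIF12 was called lower in HZ alone and KIF7 in LC alone. The share of all genes called in both breeds, or in 1 alone, was not counted. These numbers therefore have no background beside them and are no result about kinesins as a list. Some of these splits rest on a value near the threshold. In LC, KIF12 was also called without Lb replicate 2 (-1.14, adjusted p = 0.0256), KIF5B without the same library (1.04, adjusted p = 0.00663) and KIF11 without La replicate 3 (1.06, adjusted p = 0.00279), and KIF7 was called in HZ by several alternatives given below. A call in 1 breed does not show that the breeds differ, and the interaction test below is the test of that.

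**Figure D2:**
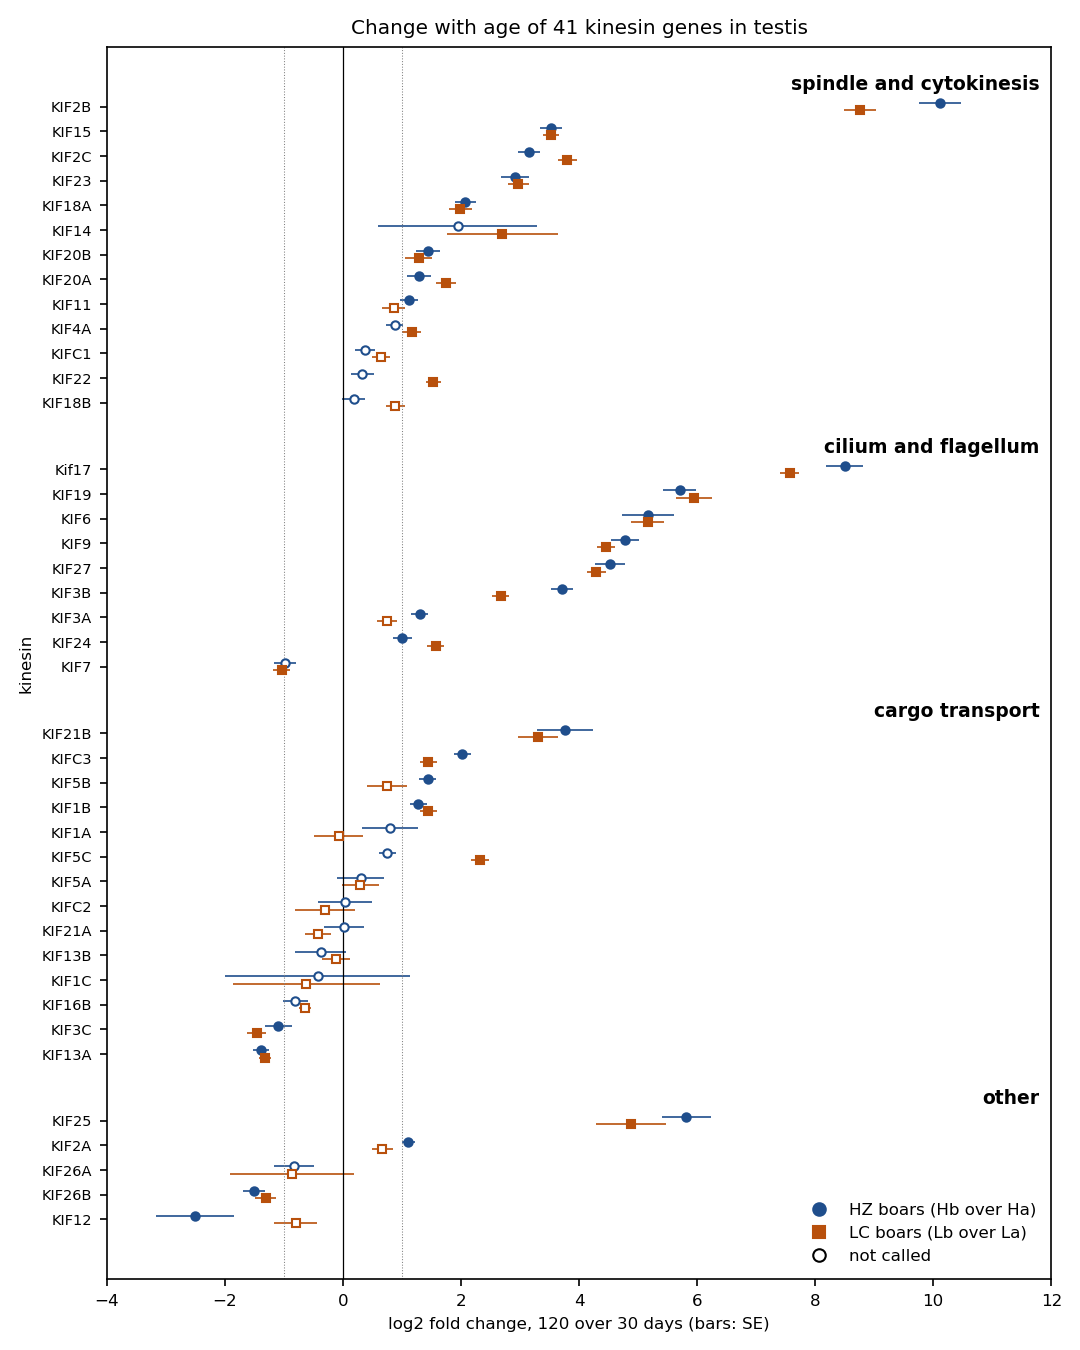
Log2 fold change from 30 to 120 days (horizontal axis, bars of 1 SE) of each kinesin (vertical axis, by role) in HZ (Hb over Ha, circles) and LC (Lb over La, squares), with open symbols where it was not called. KIF2B lay farthest out, at 10.11 in HZ and 8.76 in LC.

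Among the spindle and cytokinesis kinesins, 8 of 13 were called higher at 120 days in HZ and 10 of 13 in LC, and 0 were called lower in either, where 28.2% of all genes tested in HZ and 27.5% in LC were called higher and 23.2% and 20.1% lower. Their median log2 fold changes were 1.44 and 1.74, and 0.70 and 1.16 with limma on log2(FPKM + 1). The counts include KIF2B in both breeds and KIF14 in LC, which passed the filter only through their 120-day libraries. KIF2B, which shortens microtubule ends at kinetochores and spindle poles, was at 0.153, 0.482 and 0.349 CPM in Ha, 428, 301 and 375 in Hb, 0.594, 0.301 and 0.278 in La and 192, 186 and 135 in Lb. It was close to absent in the 30-day libraries, where it had 4, 12 and 9 counts in Ha and 14, 6 and 7 in La, and high in every library of 120 days. Its log2 fold change was 10.11 ± 0.36 (adjusted p = 1.73e-06) in HZ and 8.76 ± 0.27 (adjusted p = 7.72e-08) in LC, values that rest on those few counts. KIF2C, of the same family and known for correcting wrong attachments of chromosomes to the spindle, was at 44.4, 37.0 and 31.4 CPM in Ha, 355, 283 and 369 in Hb, 18.6, 15.2 and 16.5 in La and 261, 247 and 187 in Lb. Both ages were separated in each breed, and within the 30-day libraries every LC value was below every HZ value. The change with age was 3.16 ± 0.19 (adjusted p = 1.08e-05) in HZ and 3.80 ± 0.16 (adjusted p = 2.58e-07) in LC.

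The 3 kinesins of family 6 work at the midzone and midbody at the end of division. KIF23, the motor of the centralspindlin complex, was at 21.1, 23.7 and 18.4 CPM in Ha, 158, 115 and 202 in Hb, 14.6, 11.8 and 12.8 in La and 121, 81.9 and 101 in Lb. All 120-day values were above all 30-day values, with log2 fold changes of 2.91 ± 0.23 (adjusted p = 4.05e-05) in HZ and 2.97 ± 0.17 (adjusted p = 1.77e-06) in LC. KIF20A, which brings the chromosomal passenger complex to the midzone, was at 36.3, 39.9 and 34.4 CPM in Ha, 102, 63.6 and 104 in Hb, 28.6, 21.5 and 25.0 in La and 97.6, 83.9 and 67.2 in Lb. Ages did not overlap in either breed, and Hb2 was the lowest of its group. The change was 1.29 ± 0.21 (adjusted p = 0.00116) in HZ and 1.74 ± 0.17 (adjusted p = 3.2e-05) in LC, and the HZ call was lost with total counts alone (0.97) and both limma fits (0.70 and 0.75). KIF20B, which acts late in cytokinesis, was at 16.7, 19.2 and 13.2 CPM in Ha, 51.0, 37.0 and 45.2 in Hb, 13.02, 12.3 and 16.5 in La and 40.7, 23.8 and 36.1 in Lb. It was higher at 120 days in every library, by 1.44 ± 0.20 (adjusted p = 0.000569) in HZ and 1.28 ± 0.23 (adjusted p = 0.00106) in LC, but was not called by the limma fits (0.72 and 0.92 in HZ, 0.70 and 0.91 in LC).

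KIF22 was called in LC alone and KIFC1 in neither breed. KIF22, a motor that binds chromosome arms, was at 76.1, 74.8 and 49.8 CPM in Ha, 85.4, 94.2 and 72.8 in Hb, 33.7, 26.0 and 29.2 in La and 85.8, 86.1 and 81.8 in Lb. In HZ the ages overlapped, while in LC all 120-day libraries were above all 30-day libraries. The log2 fold change was 0.33 ± 0.19 (adjusted p = 0.158) in HZ, not called, and 1.53 ± 0.13 (adjusted p = 1.29e-05) in LC. KIFC1, a minus-end motor that focuses spindle poles, was at 29.3, 27.4 and 22.4 CPM in Ha, 38.3, 30.5 and 33.6 in Hb, 19.7, 18.2 and 16.1 in La and 28.1, 31.1 and 24.5 in Lb. The ages were separated in each breed by a small gap, and neither change was called, at 0.37 ± 0.17 (adjusted p = 0.0829) in HZ and 0.65 ± 0.15 (adjusted p = 0.00424) in LC. The HZ values of KIF22 and KIFC1 had the other sign in both limma fits (-0.14 and -0.14 for KIF22, -0.13 and -0.15 for KIFC1).

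Of the other 6 spindle kinesins, the change with age ran from 0.18 for KIF18B to 3.53 for KIF15 in HZ, and from 0.86 for KIF11 to 3.52 for KIF15 in LC. The HZ value of KIF18B had the other sign with total counts alone (-0.12) and both limma fits (-0.23 and -0.29). KIF15 works beside KIF11 to keep the spindle bipolar, and KIF18A and KIF18B limit the length of microtubule plus ends. KIF15 and KIF18A were called higher in both breeds, KIF11 in HZ, KIF4A and KIF14 in LC, and KIF18B in neither. The KIF11 call was lost with total counts alone (0.81) and both limma fits (0.55 and 0.63), and the KIF4A call with the same 3 (0.99, 0.66 and 0.82). KIF14, a midbody motor, varied strongly between replicates, being at 0 CPM in Ha1 and La1. Its call in LC, 2.70 ± 0.94 (adjusted p = 0.0304), was lost without La replicate 2 (2.62, adjusted p = 0.0893) and without Lb replicate 1 (2.17, adjusted p = 0.101), and also with DESeq2 (adjusted p = 0.107), with all 12 libraries in one fit (adjusted p = 0.0964) and with limma on log2(FPKM + 1) (0.62). Spermatocyte and spermatid markers and the summed FPKM of dividing-cell markers, given above, moved in the same direction with age as these motors. Of the 8 dividing-cell markers, however, 3 had a negative log2 fold change in each breed. The part of these markers in the change was not tested.

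Cilium and flagellum kinesins had the highest median change with age of the 4 roles. In HZ 8 of 9 were called higher and 0 lower, against 28.2% and 23.2% of all genes. In LC 7 were called higher and 1 lower, against 27.5% and 20.1% of all genes. Median log2 fold changes were 4.52 and 4.29, and 2.90 and 2.11 with limma on log2(FPKM + 1). The counts include KIF6, which passed the filter only through its 120-day libraries. Kif17, a kinesin of family 2 that in testis is known for carrying a transcriptional coactivator in spermatids, was at 3.30, 3.37 and 5.09 CPM in Ha, 1634, 1108 and 1522 in Hb, 5.52, 4.72 and 4.29 in La and 946, 976 and 810.2 in Lb. The 30-day libraries of both breeds were near the bottom of its range and the 120-day libraries far above them, with no overlap. The change was 8.50 ± 0.31 (adjusted p = 1.96e-06) in HZ and 7.57 ± 0.16 (adjusted p = 2.88e-08) in LC. Because this entry was assembled and named by similarity, its name is less certain than those of the other 40.

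KIF3A and KIF3B form the motor pair of heterotrimeric kinesin-2, which moves intraflagellar transport trains toward the tip. KIF3B was at 31.0, 26.5 and 28.3 CPM in Ha, 414, 292 and 420.2 in Hb, 35.3, 28.9 and 36.3 in La and 220.2, 235 and 179 in Lb. It was higher in every library of 120 days, most so in Hb, and the ages did not overlap in either breed. The change was 3.71 ± 0.19 (adjusted p = 5.92e-06) in HZ and 2.67 ± 0.14 (adjusted p = 1.04e-06) in LC. KIF3A was at 18.3, 19.3 and 18.8 CPM in Ha, 48.0, 48.2 and 42.3 in Hb, 19.6, 21.1 and 24.3 in La and 39.6, 28.8 and 39.3 in Lb. Its ages were also separated, with changes of 1.298 ± 0.14 (adjusted p = 0.00014) in HZ and 0.74 ± 0.17 (adjusted p = 0.00448) in LC, the second not called, and the HZ call was lost with total counts alone (0.99) and with limma on log2(FPKM + 1) (0.95). The FPKM of KIF3B divided by that of KIF3A was 1.12, 0.849 and 0.97 in Ha, 4.41, 3.22 and 4.85 in Hb, 1.14, 0.896 and 0.919 in La and 3.07, 4.40 and 2.41 in Lb. The partners were thus at similar levels per length at 30 days, and KIF3B was in excess in every library of 120 days.

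KIF6 and KIF9 make up family 9, and KIF9 is known as a motor of the central pair in motile flagella. KIF9 was at 4.11, 3.49 and 3.999 CPM in Ha, 140.3, 89.2 and 89.3 in Hb, 4.03, 3.87 and 3.26 in La and 88.6, 80.1 and 73.1 in Lb. KIF6 was at 0.729, 0.763 and 0.349 CPM in Ha, 31.8, 14.2 and 20.5 in Hb, 0.339, 0.502 and 0.318 in La and 13.9, 15.8 and 11.6 in Lb. For each gene all 120-day libraries were far above all 30-day libraries. KIF9 changed by 4.78 ± 0.24 (adjusted p = 6.02e-06) in HZ and 4.45 ± 0.15 (adjusted p = 9.87e-08) in LC, and KIF6 by 5.17 ± 0.45 (adjusted p = 5.81e-05) and 5.16 ± 0.28 (adjusted p = 1.13e-06). KIF19, which limits the length of motile cilia, was at 1.69, 2.25 and 2.76 CPM in Ha, 144, 89.2 and 116 in Hb, 1.23, 2.11 and 1.63 in La and 119, 117 and 65.3 in Lb. Its values at 30 days were low in both breeds, and Lb3 and Hb2 were the lowest at 120 days. The change was 5.70 ± 0.28 (adjusted p = 5.61e-06) in HZ and 5.94 ± 0.31 (adjusted p = 8.67e-07) in LC. LOC110259833, described in the table as similar to KIF19, had at most 0.05 FPKM in any library.

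**Figure D3:**
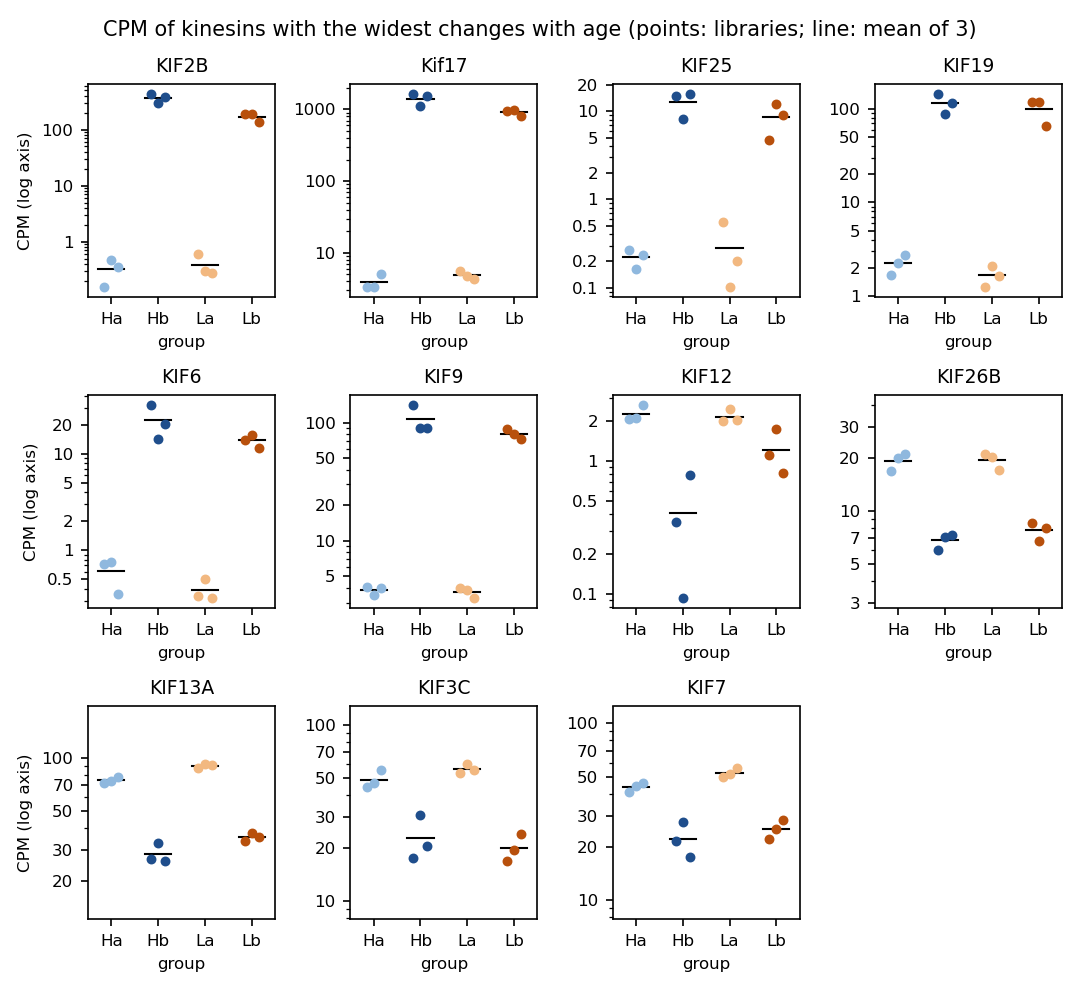
CPM (vertical axis, log scale) of kinesins with large changes with age in each of the 3 libraries of Ha, Hb, La and Lb (horizontal axis). Kif17 was at 1634, 1108 and 1522 CPM in Hb.

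KIF27 and KIF24 were called higher in both breeds. KIF27, a relative of KIF7 linked to the central pair of motile cilia, had log2 fold changes of 4.52 in HZ and 4.29 in LC. KIF24, which restrains the growth of cilia from centrioles, was near the threshold in HZ, at 1.01 ± 0.17 (adjusted p = 0.0012). That call was lost without Ha replicate 1 (0.98), Ha replicate 3 (0.92) or Hb replicate 2 (0.90), and also with total counts alone (0.71), both limma fits (0.42 and 0.53) and no filter on low counts (0.99). KIF7 went the other way. It is a Hedgehog pathway regulator at the tip of the primary cilium and was at 40.9, 44.4 and 46.1 CPM in Ha, 21.5, 27.5 and 17.5 in Hb, 49.98, 51.8 and 55.6 in La and 22.1, 25.4 and 28.3 in Lb. Every 120-day library was below every 30-day library in both breeds, with log2 fold changes of -0.98 ± 0.19 (adjusted p = 0.00271) in HZ, just short of the threshold and not called, and -1.04 ± 0.14 (adjusted p = 0.000205) in LC, called. In HZ it was called with total counts alone (-1.28), with both limma fits (-1.22 and -1.46), without Ha replicate 1 (-1.03, adjusted p = 0.00899) and without Hb replicate 2 (-1.20, adjusted p = 0.000726). The LC call was lost without La replicate 3 (-0.997, adjusted p = 0.00148) and without Lb replicate 1 (-0.94, adjusted p = 0.000847). Spermatid and spermatocyte markers both moved in the same direction with age as the 8 rising members of this role in HZ, and their part was not tested.

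In each breed 4 of 14 cargo kinesins were called higher and 2 lower at 120 days. Of all genes 28.2% were called higher and 23.2% lower in HZ, and 27.5% and 20.1% in LC. The rises were thus near the background and the falls below it, and neither count is a result about these motors. The median log2 fold change was 0.17 in HZ and -0.09 in LC. The HZ median was -0.12 with total counts alone, so its sign depended on the scaling. KIF5A, KIF5B and KIF5C are the heavy chains of conventional kinesin, KIF5B widely expressed and the other pair best known from neurons. KIF5B was at 59.2, 59.8 and 57.0 CPM in Ha, 175, 131 and 169.9 in Hb, 41.9, 31.0 and 47.0 in La and 101, 36.3 and 62.4 in Lb. The ages were separated in HZ and overlapped in LC, where Lb2 lay between La2 and La1. The change was 1.44 ± 0.15 (adjusted p = 0.000127) in HZ, where both limma fits did not call it (0.86 and 0.92), and 0.75 ± 0.34 (adjusted p = 0.0743) in LC, not called. KIF5C was at 39.5, 42.98 and 32.7 CPM in Ha, 65.3, 61.4 and 67.1 in Hb, 15.0, 15.7 and 16.5 in La and 94.1, 72.7 and 66.0 in Lb. All 3 La libraries were far below the other 9, and the ages did not overlap in either breed. Its change was 0.75 ± 0.14 (adjusted p = 0.00233) in HZ, not called, and 2.32 ± 0.15 (adjusted p = 3.63e-06) in LC. KIF5A was low throughout, at 1.42, 1.81 and 3.22 CPM in Ha, 2.43, 2.55 and 2.97 in Hb, 1.15, 1.66 and 1.71 in La and 1.76, 1.98 and 1.75 in Lb, with changes of 0.30 ± 0.39 (adjusted p = 0.519) and 0.29 ± 0.32 (adjusted p = 0.423), neither called.

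KIF3C, a kinesin-2 subunit that can pair with KIF3A, was at 44.2, 46.5 and 55.3 CPM in Ha, 17.6, 30.6 and 20.4 in Hb, 52.9, 59.4 and 55.6 in La and 16.8, 19.4 and 24.0 in Lb. In contrast to KIF3A and KIF3B, it was lower in every 120-day library, with log2 fold changes of -1.09 ± 0.23 (adjusted p = 0.00392) in HZ and -1.46 ± 0.16 (adjusted p = 6.81e-05) in LC. The HZ call was lost without Ha replicate 3 (-0.99, adjusted p = 0.0161) and without Hb replicate 1 (-0.92, adjusted p = 0.00972). KIF13A, which carries recycling endosomes, was at 71.6, 73.7 and 77.7 CPM in Ha, 26.5, 32.8 and 25.9 in Hb, 86.9, 91.5 and 91.0 in La and 33.7, 37.6 and 35.5 in Lb. Its ages were well separated, and it was lower at 120 days, at -1.39 ± 0.14 (adjusted p = 0.000111) in HZ and -1.32 ± 0.10 (adjusted p = 9.81e-06) in LC. KIFC3, a minus-end motor of membrane transport and cell junctions, was at 28.9, 27.0 and 24.9 CPM in Ha, 124, 101 and 103 in Hb, 25.5, 24.5 and 22.8 in La and 67.5, 74.9 and 54.3 in Lb. It was higher in every 120-day library, by 2.03 ± 0.14 (adjusted p = 2.09e-05) in HZ and 1.45 ± 0.14 (adjusted p = 3.28e-05) in LC. KIFC2, its relative, was low in all groups, at 1.57, 1.004 and 1.40 CPM in Ha, 0.986, 2.14 and 0.923 in Hb, 1.02, 1.36 and 0.397 in La and 0.648, 0.989 and 0.565 in Lb, and the ages overlapped in both breeds. Neither change was called, at 0.03 ± 0.46 (adjusted p = 0.952) and -0.30 ± 0.51 (adjusted p = 0.615).

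The other 7 cargo kinesins were KIF1A, KIF1B, KIF1C, KIF13B, KIF16B, KIF21A and KIF21B, with log2 fold changes from -0.80 for KIF16B to 3.77 for KIF21B in HZ, and from -0.64 for KIF16B to 3.30 for KIF21B in LC. KIF1B, which moves mitochondria and vesicles, and KIF21B were called higher in both breeds. KIF16B was not called, but in HZ it was called lower with total counts alone (-1.11, adjusted p = 0.00295) and both limma fits (-1.10 and -1.26), and in these 3 fits 3 cargo kinesins were called higher and 3 lower in HZ. KIF1A was called higher in HZ only without Hb replicate 2 (1.09, adjusted p = 0.0403). KIF1C had 0 counts in 5 libraries. All 8 Sertoli cell, 7 Leydig cell and 5 endothelial markers had a negative log2 fold change with age in each breed, the direction of KIF3C and KIF13A. So did 5 of 6 macrophage entries in each breed, and 7 of 11 spermatogonia markers in HZ and 6 in LC. Of the 10 peritubular and stromal markers 9 did in HZ and 7 in LC, where ACTA2 was called higher. Their part was not tested.

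Among the 5 kinesins of other roles, 2 were called higher and 2 lower in HZ, and 1 higher and 1 lower in LC. Of all genes 28.2% and 23.2% were called in HZ and 27.5% and 20.1% in LC, so with 5 genes these counts were near the background and are no result about the role as a whole. KIF2A, which shortens microtubule ends in neurons and spindles, was at 103, 100.3 and 95.4 CPM in Ha, 224, 202 and 218 in Hb, 91.0, 78.0 and 120.0 in La and 173, 133 and 149 in Lb. It was higher at 120 days in every library, by 1.11 ± 0.11 (adjusted p = 0.00011) in HZ, called, and 0.67 ± 0.18 (adjusted p = 0.00861) in LC, not called, and the HZ call was lost with total counts alone (0.80) and both limma fits (0.83 and 0.86). KIF25, a minus-end type kinesin, was at 0.269, 0.161 and 0.233 CPM in Ha, 14.7, 8.17 and 15.6 in Hb, 0.552, 0.1005 and 0.199 in La and 4.72, 12.1 and 8.93 in Lb. It was close to 0 at 30 days and higher in every library of 120 days, by 5.82 ± 0.41 (adjusted p = 2.41e-05) in HZ and 4.88 ± 0.59 (adjusted p = 0.000121) in LC, with few counts behind the 30-day values, and limma on log2(FPKM + 1) did not call it (0.71 and 0.55). KIF12 was at 2.07, 2.13 and 2.64 CPM in Ha, 0.348, 0.0929 and 0.791 in Hb, 1.99, 2.46 and 2.03 in La and 1.11, 1.74 and 0.821 in Lb. Its ages were separated in both breeds, and the change was -2.51 ± 0.66 (adjusted p = 0.011) in HZ, called but not by limma on log2(FPKM + 1) (-0.71), and -0.80 ± 0.36 (adjusted p = 0.0771) in LC, not called. KIF26B, a kinesin without motor activity that takes part in cell adhesion, was at 16.8, 19.9 and 21.0 CPM in Ha, 6.03, 7.10 and 7.32 in Hb, 21.1, 20.2 and 17.1 in La and 8.56, 6.73 and 8.06 in Lb. It was lower in every 120-day library, at -1.499 ± 0.18 (adjusted p = 0.000305) in HZ and -1.304 ± 0.18 (adjusted p = 0.000255) in LC, and limma on log2(FPKM + 1) did not call it (-0.75 and -0.66). KIF26A, its paralog, was not called in either breed, at -0.83 ± 0.33 (adjusted p = 0.0565) and -0.86 ± 1.04 (adjusted p = 0.48), but in HZ it was called lower with total counts alone (-1.16, adjusted p = 0.0093), with limma on log2(FPKM + 0.1) (-1.32) and without Hb replicate 1 (-1.26, adjusted p = 0.00343), and it ranged from 0 counts in Lb1 to 610.0 in La1.

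Between the breeds, few kinesins passed both thresholds. At 30 days 39 of the 41 passed the filter, without KIF2B and KIF25. The edgeR test called 0 higher and 3 lower in LC, where 3.6% and 4.01% of 15648 genes were called. An adjusted p under 0.05 was reached by 13 of the 39 (33.3%), among them 8 of the 12 spindle kinesins tested, where 21.3% of all genes reached it, and most of these missed only the fold threshold. The 13 became 7 without Ha replicate 1, and 6 without Ha replicate 2, La replicate 2 or La replicate 3. In those 4 fits the number over all genes fell from 3333 to between 1832 and 2014. An unadjusted p under 0.05 was reached by 14 (35.9%), no more than the 36.4% of all genes. DESeq2 and limma also called 0 higher. The kinesin median was -0.17 and that of all genes 0.00. The 3 were KIF5C at -1.29 ± 0.13 (adjusted p = 0.00126), KIF22 at -1.18 ± 0.18 (adjusted p = 0.00512) and KIF2C at -1.17 ± 0.15 (adjusted p = 0.00287), and for each the La values given above were all below the Ha values. Limma on log2(FPKM + 1) did not call KIF5C (-0.97). All 12 spindle kinesins tested had a negative log2 fold change, with a median of -0.66, from -1.18 for KIF22 to -0.17 for KIF11. In the same comparison 4 of 8 spermatocyte markers and 2 of 8 markers of dividing cells were called lower in LC and 0 higher. Of 10 spermatogonia markers tested, 1 was called lower and 0 higher, and 9 had a negative log2 fold change (median -0.55). For somatic cells, 3 of 8 Sertoli cell and 1 of 7 Leydig cell markers were called higher. The part of these markers was not tested. The cilium and cargo medians were -0.06 and 0.03.

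At 120 days all 41 passed the filter. The edgeR test called 0 higher and 1 lower in LC, where 2.65% and 1.2% of 16311 genes were called, while 4 of the 41 (9.76%) had an adjusted p under 0.05 and 13 (31.7%) an unadjusted p under 0.05, where 5.47% and 25.5% of all genes did, so these counts were near the background. DESeq2 and limma also called 0 higher. The kinesin median was -0.32 and that of all genes 0.00. The called gene was KIF2B, at -1.06 ± 0.18 (adjusted p = 0.0229), with every Lb value below every Hb value. This call was lost without Hb replicate 1 (-0.96, adjusted p = 0.0403), Hb replicate 3 (-1.04, adjusted p = 0.0722), Lb replicate 1 (-1.15, adjusted p = 0.061), Lb replicate 2 (-1.11, adjusted p = 0.0812) or Lb replicate 3 (-0.93, adjusted p = 0.0725), and with total counts alone (-0.99) and both limma fits (-0.93 and -0.95). KIF5B had a larger difference that was not called, -1.20 ± 0.33 (adjusted p = 0.075), and it was called by DESeq2 (-1.22, adjusted p = 0.00351) and by the fit with all 12 libraries (-1.25, adjusted p = 0.0162). In this comparison 5 of 10 peritubular and stromal markers were called higher in LC and 0 lower, with a median of 1.66. Of 10 spermatid markers 1 was called lower, and all 10 had a negative log2 fold change (median -0.80). For Leydig cells 0 of 7 markers were called, but all 7 were positive (median 1.95), as were all 8 Sertoli cell markers (median 0.51). Higher calls were also made for 1 of 5 endothelial and 1 of 6 macrophage markers. The part of these markers was not tested.

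**Figure D4:**
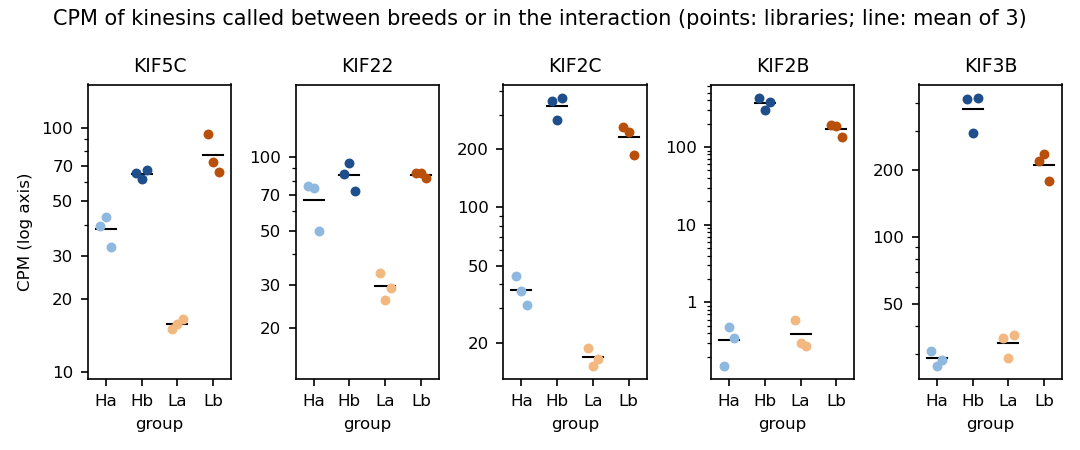
CPM (vertical axis, log scale) of kinesins called in a breed comparison or in the breed by age interaction in each of the 3 libraries of Ha, Hb, La and Lb (horizontal axis). KIF5C was at 15.0, 15.7 and 16.5 CPM in La.

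Whether the change with age differed between the breeds was tested as an interaction over the 12 libraries, the LC change minus the HZ change. Of 41 kinesins tested, 2 were called higher and 1 lower, where 3.51% and 1.62% of 17332 genes were called. The counts were thus near the background and are no result about kinesins as a list, so only the single genes are given. KIF5C had an interaction of 1.55 ± 0.21 (adjusted p = 0.00344) and KIF22 of 1.18 ± 0.24 (adjusted p = 0.0167), so both rose more in LC. In both, La was the low group. For KIF22 the other 3 groups lay closer together, while for KIF5C every Ha library was also below every Hb and Lb library. KIF3B had -1.06 ± 0.23 (adjusted p = 0.0213), rising more in HZ, with Hb the high group. Its call was lost without Ha replicate 2 (adjusted p = 0.0603), Hb replicate 1 (-0.95), Hb replicate 3 (-0.93), La replicate 3 (-0.94, adjusted p = 0.0544) or Lb replicate 3 (-0.93), and with total counts alone (-0.90) and both limma fits (-0.78 and -0.84), where 0 kinesins were called lower. KIF2B had a larger value, -1.37 ± 0.51 (adjusted p = 0.126), which was called by DESeq2 (-1.42, adjusted p = 0.0415) and not by edgeR. This value rests on 4, 12 and 9 counts in Ha and 14, 6 and 7 in La. KIF2B had too few counts to be tested between Ha and La, so its interaction has no reliable size. Kif17, at -0.95 ± 0.28 (adjusted p = 0.0599), was called without Ha replicate 3 (-1.14, adjusted p = 0.0186) or Hb replicate 2 (-1.10, adjusted p = 0.0206). Among the markers, 2 of 10 for spermatids were called lower in the interaction and 0 higher (median -1.42), the direction of KIF3B, KIF2B and Kif17. Spermatid markers were very low at 30 days, where only 5 of 10 could be tested between the breeds, so that median has no reliable size. Of the peritubular and stromal markers 5 of 10 were called higher and 0 lower (median 1.49), and of the spermatogonia markers 2 of 11 higher and 0 lower (median 0.32), the direction of KIF5C and KIF22. Their part was not tested.

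Partners of the kinesins were read from 4 lists. Of 12 light chains, adaptors and accessory subunits found, 6 were called higher and 0 lower at 120 days in HZ and 3 and 0 in LC, with medians of 0.86 and 0.67. Of all genes tested 28.2% were called higher in HZ and 27.5% in LC, so the LC count was no larger than the background and is no result about this list. PLEKHM2, a lysosomal adaptor, was the most abundant per length in Hb, La and Lb, with KLC1 first in Ha, and was at 26.2, 21.7 and 25.6 FPKM in Ha, 37.5, 33.5 and 34.2 in Hb, 26.4, 24.2 and 25.5 in La and 36.4, 26.2 and 27.1 in Lb. The ages were apart in HZ, and in LC they overlapped slightly as FPKM but not as CPM. Its change was 1.02 ± 0.15 (adjusted p = 0.00068) in HZ and 0.56 ± 0.15 (adjusted p = 0.0103) in LC, the second not called. MAPK8IP2, a scaffold that binds kinesin light chains, had the largest change and was at 2.03, 1.73 and 1.32 CPM in Ha, 151, 70.8 and 199 in Hb, 1.19, 0.703 and 0.914 in La and 78.0, 47.4 and 45.7 in Lb. The ages were far apart, at 6.37 ± 0.46 (adjusted p = 2.52e-05) in HZ and 5.92 ± 0.30 (adjusted p = 8.11e-07) in LC. KLC2, a light chain of conventional kinesin, was at 33.3, 32.9 and 28.7 CPM in Ha, 52.9, 68.5 and 30.8 in Hb, 11.5, 13.5 and 10.1 in La and 53.9, 61.8 and 64.3 in Lb. Like KIF5C it was lowest in La, where its log2 difference from Ha was -1.44 ± 0.14 (adjusted p = 0.00108), and it had an interaction of 1.68 ± 0.33 (adjusted p = 0.0159). It was the 1 gene of this list called in a breed comparison or in the interaction, and it was singled out after its values were seen.

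Among 15 partners of the spindle and its midzone, 14 were called higher at 120 days in HZ and 12 in LC, 0 were called lower, and medians were 1.54 and 1.79, where 28.2% of all genes in HZ and 27.5% in LC were called higher. The list includes CENPE, itself a kinesin under another symbol, which was 1 of those called higher in each breed. BIRC5, a chromosomal passenger protein, was the most abundant of them per length in Hb, with TPX2 first in Ha and La and PLK1 in Lb, and was at 11.2, 12.7 and 10.2 FPKM in Ha, 59.8, 52.0 and 66.2 in Hb, 7.78, 7.74 and 7.38 in La and 55.9, 47.0 and 38.4 in Lb. PLK1, a mitotic kinase, had the largest change and was at 30.8, 32.3 and 24.2 CPM in Ha, 389.8, 259 and 385 in Hb, 14.8, 13.6 and 13.6 in La and 313, 288 and 258 in Lb. For both genes the ages were far apart in each breed. PLK1 changed by 3.57 ± 0.22 (adjusted p = 1.29e-05) in HZ and 4.37 ± 0.12 (adjusted p = 5.1e-08) in LC, and it was lower in La than in Ha, at -1.06 ± 0.14 (adjusted p = 0.00282). AURKB, the kinase of the passenger complex, had the called interaction of this list, -1.22 ± 0.28 (adjusted p = 0.0265).

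Of 23 intraflagellar transport genes found, 21 were called higher at 120 days in HZ and 19 in LC, 0 lower, with medians of 1.95 and 1.87, where 28.2% of all genes in HZ and 27.5% in LC were called higher. IFT172, the most abundant per length at 120 days, with IFT122 first at 30 days, was at 17.3, 19.2 and 17.6 FPKM in Ha, 59.8, 49.0 and 60.1 in Hb, 14.6, 13.99 and 13.1 in La and 49.6, 51.5 and 50.8 in Lb. All 120-day libraries were above all 30-day libraries. IFT74 was at 2.84, 3.13 and 2.64 CPM in Ha, 40.8, 30.5 and 38.6 in Hb, 3.61, 3.67 and 4.25 in La and 22.0, 18.7 and 21.2 in Lb. It had the largest change in HZ, 3.67 ± 0.20 (adjusted p = 7.49e-06), and rose less in LC, with an interaction of -1.25 ± 0.23 (adjusted p = 0.0115), the 1 call of this list there. IFT140 was at 28.2, 26.6 and 28.0 CPM in Ha, 352, 242 and 327 in Hb, 25.4, 24.7 and 23.2 in La and 226, 218 and 166 in Lb. Its ages were far apart in both breeds, and its change was the largest in LC, 3.07 ± 0.14 (adjusted p = 3.92e-07).

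Tubulins form the track on which kinesins walk. Of 14 found, 6 were called higher and 4 lower at 120 days in HZ, and of 13 tested in LC 5 and 1, with medians of 0.72 and 0.74. With 28.2% and 23.2% of all genes called in HZ and 27.5% and 20.1% in LC, these counts were near the background and are no result about tubulins as a list. TUBA1B, the most abundant per length at 30 days, with TUBB4B first at 120 days (means of 608 FPKM in Hb and 619 in Lb), was at 976, 1198 and 934 FPKM in Ha, 234, 337 and 299 in Hb, 789, 889.9 and 819 in La and 359, 455 and 491 in Lb. It was lower at 120 days in every library of each breed. TUBA8 was at 14.8, 11.6 and 10.7 CPM in Ha, 659, 405 and 674 in Hb, 13.7, 8.04 and 6.99 in La and 439, 346 and 242 in Lb. Its change in HZ, 5.55 ± 0.28 (adjusted p = 5.61e-06), was the largest rise there. TUBB6 was at 37.6, 42.5 and 38.6 CPM in Ha, 5.97, 9.94 and 6.59 in Hb, 48.0, 44.4 and 41.5 in La and 31.4, 40.2 and 35.6 in Lb, low in all Hb libraries, and had the largest fall in HZ, at -2.40 ± 0.22 (adjusted p = 8.26e-05). TUBB4A was at 2.23, 2.81 and 1.40 CPM in Ha, 91.5, 49.1 and 39.7 in Hb, 0.721, 0.804 and 0.397 in La and 227, 141 and 87.4 in Lb, with Lb1 and Lb2 above every Hb library and Lb3 just below Hb1. In LC it rose the most, by 7.91 ± 0.45 (adjusted p = 1.51e-06).

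TUBA1A was at 120.4, 208 and 119 CPM in Ha, 42.2, 32.8 and 23.5 in Hb, 197, 473 and 359 in La and 80.8, 223 and 184 in Lb. Its ages overlapped in LC, where it was the 1 tubulin called lower, at -1.06 ± 0.40 (adjusted p = 0.0433). Across breeds, 2 tubulins were called higher in LC (TUBA1A and TUBB2B) and 1 lower (TUBB4A) at 30 days, and 3 higher (TUBA1A, TUBB and TUBB6) at 120 days. Of all genes 3.6% were called higher and 4.01% lower at 30 days, and 2.65% and 1.2% at 120 days. In the interaction 3 of 14 were called higher, TUBB at 1.04 ± 0.16 (adjusted p = 0.00643), TUBB4A at 3.09 ± 0.65 (adjusted p = 0.0189) and TUBB6 at 2.07 ± 0.26 (adjusted p = 0.00237), and 1 lower, TUBB2B at -4.03 ± 1.09 (adjusted p = 0.0473). There 3.51% of all genes were called higher and 1.62% lower. With so few tubulins, these counts are given for the single genes and not as a result about the list.

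Long noncoding RNAs found within 10 kb of a kinesin gene numbered 12 transcripts, of which 8 had too few counts to be tested in any comparison. Kif17 and KIF26A were not placed on a chromosome, so transcripts near them could not be found. Near KIF27, a gene of the cilium role, 2 assembled transcripts and LOC102159026 overlapped the gene. The assembled transcript from 31085227 to 31122838 on chromosome 10 of Sscrofa11.1, minus strand, had estimated counts of 0, 2 and 0 in Ha, 67, 105 and 65 in Hb, 0, 0 and 0 in La and 35, 23 and 12 in Lb. It was at or near 0 in every 30-day library and present in every 120-day library, with log2 fold changes of 6.48 ± 0.87 (adjusted p = 0.00101) in HZ and 7.35 ± 1.12 (adjusted p = 0.00188) in LC. With a group at 3 counts or fewer, such a fold change has no reliable size. The other assembled transcript was called higher in HZ, at 8.94 ± 0.98 (adjusted p = 0.00131), and LOC102159026 in LC, at 4.16 ± 0.92 (adjusted p = 0.0047). Each had too few counts to be tested for age in the other breed. Of all lncRNA transcripts tested, 38.6% of 2909 were called higher in HZ and 41.8% of 2988 in LC. Both assembled transcripts share splice junctions with known transcripts, and whether some of their reads came from KIF27 itself was not tested. LOC106509080, which overlaps KIF23, was not called, at -0.99 (adjusted p = 0.0819) in HZ and -0.43 in LC, while KIF23 rose.

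With 3 libraries a group, small differences between breeds would be missed, and a kinesin that was not called may still differ. Without Hb1, the library that stood apart in Leydig markers, the HZ comparison again called 22 kinesins higher and 4 lower, with KIF26A in place of KIF3C, and the calls that were lost without it are given with their genes.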

How the data were processed

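RNA of 12 boar testes, freed of ribosomal RNA, was sequenced by the authors with strand-specific paired reads of 150 bases. The authors filtered reads with fastp 0.18.0, removed ribosomal reads with Bowtie2 2.2.8, mapped to Sscrofa11.1 with HISAT2 2.1.0 and assembled transcripts with StringTie 1.3.4. The deposited tables hold FPKM and expected counts (estimated, not always whole) per gene and per lncRNA transcript, and the deposited assembly gives positions of new lncRNAs. The tool that made the counts, and its use of strand, were not stated. Counts were rounded and tested on the whole coding table (21674 genes) or lncRNA table (10706 transcripts), 6 libraries per comparison, with edgeR 4.0.16 in R 4.3.3: filterByExpr with a minimum count of 10, TMM, quasi-likelihood F test, Benjamini-Hochberg adjustment over all genes tested, called at adjusted p under 0.05 and absolute log2 fold change over 1. The interaction used all 12 libraries. The code was tested on simulated data. The standard error is the absolute log2 fold change divided by the square root of F. CPM used TMM factors over 12 libraries. With totals of 17165519 to 23758931, 10 counts are about 0.5 CPM. Alternatives were DESeq2 1.42.0, RLE factors, total counts alone, limma 3.58.1 on log2(FPKM + 1) and log2(FPKM + 0.1), other count filters, all 12 libraries in one fit, a replicate block and leaving out each library. The numbers of the replicates mark different animals, so no pairing was used. Tables and figures used Python 3.11.15, numpy 2.4.6, pandas 2.3.3 and matplotlib 3.10.9. Values in every library were given for the 6 called kinesins with the largest change in each direction in each age comparison whose groups did not overlap, every kinesin called between breeds or in the interaction, and the most abundant kinesin of each group. They were also given for all members of kinesin families 1, 2, 6, 9 and 14, and for the most abundant and most changed gene of each partner list. Family 6 held no gene named by the other parts of this rule. Relatives in other families, such as KIF15 and KIF27, were given without such values. The members and lists were chosen with earlier results of these data known. KIFBP was found under the symbol KIF1BP, and KIAA1279, TTC30A, TTC30B and 3 tubulins were not found. Promoter and protein motifs were not analysed, since no sequence tables were at hand.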

Additional observations from a re-analysis of the deposited data

Results flagged for a closer look

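The change with age of 3 kinesins differed between the breeds by the edgeR interaction test over 12 libraries, the LC change minus the HZ change. For KIF5C the difference was 1.55 on the log2 scale (adjusted p = 0.00344), for KIF22 it was 1.18 (adjusted p = 0.0167), and for KIF3B it was -1.06 (adjusted p = 0.0213). Of the 41 kinesins, 2 were called higher and 1 lower, near the 3.51% and 1.62% of all genes, so the count itself is no result about kinesins as a list. The call was kept in 20 of 20 alternatives for KIF5C and for KIF22, and in 12 of 20 for KIF3B. What lies behind these differences was not tested.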

How the results depend on the processing

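Among the 59 kinesin calls of the 5 tests, none changed sign under an alternative. Over 372 fits that left out 1 library, 353 kept the call and 19 lost it, and over 528 other alternatives 485 kept it and 43 lost it. For 25 changes that the text prints as not called, 8 of 162 leave-one-out fits and 12 of 223 other alternatives gave a call, and 3 and 16 turned the sign. In Ha vs Hb, total counts alone gave -0.003 for KIF5A, -0.244 for KIFC2 and -0.121 for KIF18B. Limma on log2(FPKM + 1) gave -0.057, -0.105 and -0.228 for these, -0.138 for KIF22 and -0.132 for KIFC1, and limma on log2(FPKM + 0.1) gave -0.129, -0.387, -0.294, -0.142 and -0.145 in that order. In La vs Lb, the limma fits gave -0.019 and -0.068 for KIF5A. KIFC2 ran from -0.499 to 0.241 in leave-one-out fits for age in HZ and from -0.675 to 0.060 for age in LC. In leave-one-out fits, kinesins called higher in Ha vs Hb numbered 21 to 22 and lower 3 to 5, and the LC comparison, La vs Lb, gave 21 to 23 and 3 to 5. With limma on log2(FPKM + 1), 14 were called higher in Ha vs Hb, and with total counts alone and with limma on log2(FPKM + 0.1), 7 were called lower there. Kinesins called lower in Hb vs Lb numbered 2 with DESeq2 and with all 12 libraries in one fit, and 0 with total counts alone, with both limma fits, with the replicate block, and without Hb replicate 1, Hb replicate 3, Lb replicate 1, Lb replicate 2 or Lb replicate 3. In the breed by age interaction, kinesins called lower numbered 2 with DESeq2, 0 with total counts alone and with both limma fits, and 0 to 2 in leave-one-out fits, while 2 were called higher in each of those. The causes were not tested. With the replicate number as a block the counts higher and lower were 22 and 5 for age in HZ, 21 and 4 for age in LC, 0 and 3 for breed at 30 days, 0 and 0 for breed at 120 days, and 2 and 1 in the interaction, and with this block KIF7 was called lower in HZ (-1.003, adjusted p = 0.00746), KIFC2 was at -0.050 in HZ and the calls of KIF14 in LC (adjusted p = 0.0669) and of KIF2B between the breeds (adjusted p = 0.0622) were lost. Medians by role also moved: for cargo kinesins in Ha vs Hb, 0.17 became -0.12 with total counts alone. Depth limits KIF2B, KIF6, KIF12, KIF14 and KIF25, whose low group had few counts. Motif searches were not run.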
